A study of Mus musculus with 8 samples.

Results

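The genes described here encode the proteins of the mitochondrial ribosome (mitoribosome), which are known by the symbols *Mrpl* for the large subunit and *Mrps* for the small subunit. Every entry of the deposited table whose symbol began with *Mrpl* or *Mrps* followed by a digit was taken, pseudogenes were left out, and no measured value entered the choice. This gave 76 of 23427 entries, 47 named for the large and 29 for the small subunit. The mRNA of mouse primary oligodendrocyte precursor cells (OPCs) was sequenced over 4 days, Day 0 to Day 3, as the cells became oligodendrocytes (OLs), with 2 libraries per day and 8 in all. The cells were wild type (WT, strain C57BL/6J) in every library, and the groups differ by day of culture. Per the study's methods, OPCs were panned with a PDGFRα antibody from the brain cortex of 3 mouse pups (postnatal day 7). Days are counted from the switch to a medium without the growth factor PDGF-AA and with thyroid hormone (T3), so Day 0 was the undifferentiated culture. The sample labels describe a serum medium and another RNA kit, which differs from the methods. The methods call the replicates independent, but no label ties a replicate number to a litter or a day, so p-values measure the spread between these libraries.

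Mitochondria have their own ribosome, which makes the proteins encoded in mitochondrial DNA, all of them subunits of the respiratory chain and the ATP synthase. Its RNAs come from mitochondrial DNA, but its proteins are made from nuclear genes on cytosolic ribosomes and are imported, so the genes described here lie in the nucleus. The small subunit holds the mRNA and decodes it, and the large subunit joins amino acids in its peptidyl transferase center. Some of these proteins have a counterpart in the bacterial ribosome, and others are found only in mitochondria. The symbols follow the particle with a few exceptions: the products of *Mrps30* and *Mrps18a* sit in the large subunit, and that of *Mrps36* is now known as a component of the 2-oxoglutarate dehydrogenase complex.

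All 76 genes matched the GENCODE M21 annotation (GRCm38) and were spread over 17 chromosomes. Their promoters are shown because genes of 1 particle that are scattered in this way can still share short strings near their starts. For 67 of them RefSeq (GRCm38.p6) gave a window from 250 bases before to 50 bases after the gene's start. The window was searched on both strands for 5 short strings: CCGGAAG, the core bound by ETS factors such as GABP; AAGATGGC, the core bound by YY1; GCATGCGC, the core bound by NRF1; the E-box CACGTG; and the GC box GGGCGG. The first 3 are known from promoters of mitochondrial genes. The gene that fell most, *Mrpl52*, had an ETS string in the 120 bases before its start (chr14:54426789-54426908, plus strand), in capitals and read on the other strand as CTTCCGG.
Mrpl52 upstream: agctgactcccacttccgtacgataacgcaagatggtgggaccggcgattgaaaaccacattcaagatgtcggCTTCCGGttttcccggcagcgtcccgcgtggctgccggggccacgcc
A second match lay at the start itself. The lines below give 30 bases around ETS strings of both subunits, with the match in capitals: the second match of *Mrpl52* (chr14:54426900-54426929), *Mrpl3* (chr9:105053238-105053267), *Mrps27* (chr13:99344727-99344756) and, on the minus strand, *Mrps21* (chr3:95871478-95871507).
Mrpl52: ggccacgcccaCTTCCGGttcccttgctcc
Mrpl3: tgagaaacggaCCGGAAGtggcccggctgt
Mrps27: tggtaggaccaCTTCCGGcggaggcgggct
Mrps21: cgtagcttccgCTTCCGGtccgcagagacc
The YY1 string lay just after the RefSeq start of 5 of the genes described below. These were *Mrpl42* (chr10:95501904-95501933, minus strand), *Mrpl49* (chr19:6057721-6057750, minus strand), *Mrps27* (chr13:99344789-99344818), *Mrps7* (chr11:115604147-115604176) and *Mrps18a* (chr17:46111004-46111033), again with the match in capitals.
Mrpl42: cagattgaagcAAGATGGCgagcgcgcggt
Mrpl49: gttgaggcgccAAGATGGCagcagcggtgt
Mrps27: tggtgcgctccAAGATGGCggctcccatgg
Mrps7: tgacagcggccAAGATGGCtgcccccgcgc
Mrps18a: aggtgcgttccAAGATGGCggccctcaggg
In these 5 genes the string began 11 to 27 bases after the start given by RefSeq. GENCODE places some starts elsewhere: those of *Mrps7* (chr11:115603925) and *Mrpl49* (chr19:6057785, minus strand) lie farther upstream of the match. The NRF1 string is shown for *Mrpl10* (chr11:97041437-97041466) and *Mrpl22* (chr11:58171620-58171649), where it lay before the start.
Mrpl10: cccagctccacGCATGCGCatagcggccct
Mrpl22: ggcctcggactGCGCATGCgtatagtcagc

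The ETS and YY1 strings were more frequent in these windows than in those of all genes tested, and the E-box and GC box were less frequent. The ETS string was found in 24 of 67 windows (35.8%), against 20.4% of the 8960 tested genes with a window. The YY1 string was found in 12 windows (17.9% against 5.49%). The NRF1 string was found in 8 (11.9% against 6.41%), 7 of them among the 41 large-subunit genes and 1 among the 26 small-subunit genes. The E-box was found in 5 (7.46% against 12.03%) and the GC box in 33 (49.3% against 71.4%). The 80 cytosolic ribosomal protein genes, 58 of which had a window, showed the ETS string in 39.7% and the YY1 string in 8.62%. In the respiratory chain these shares were 25% and 14.1%. The matches were also described by their position. Of 28 ETS matches, 25 lay between 100 bases before and 50 bases after the start (89.3%, against 75.2% over all genes tested), with a median position of -22.5. The 12 YY1 matches had a median position of 15 bases after the start (3 over all genes tested), and 9 of them lay in that range (75%, against 71.8%). For the NRF1 string 10 of 14 did (71.4% against 72.6%), for the GC box 41 of 70 (58.6% against 66.2%) and for the E-box 2 of 7 (28.6% against 61.5%). Matches of different strings shared bases in 3 genes only, *Mrpl2* (E-box and GC box), *Mrpl17* and *Mrps16* (ETS string and GC box). The NRF1 string overlapped its own reverse complement in *Mrpl9*, *Mrpl32* and *Mrpl39*. These shares are descriptions, and a match is not a binding site.

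The table gives FPKM, that is fragments per kilobase of each transcript scaled to the mapped fragments of the library, so that levels of different genes can be set side by side. From the spacing of the low values, the depth of the libraries was estimated at 955000 to 1515000 fragments, with Day 3 the shallowest. At this depth the median member rested on 30.5 fragments per library (range of the members' medians 7.0 to 182), for a counting SD of 18.1% at the median. The labelled cells showed their markers. Of 6 OPC markers 5 were lower on Day 3, with *Cspg4* at a log2 change of -4.96 (adjusted p = 0.000114) and *Pdgfra* at -4.87 (0.00622). All 7 OL markers were higher, with *Mobp* at 8.39 (0.000132) and *Mbp* at 7.11 (4.78e-05). All 6 cycling genes were lower, and their summed FPKM was 998 and 754 on Day 0 but 8.87 to 55.5 in the 6 later libraries. Astrocyte markers differed by replicate, with sums of 133 to 168 FPKM in the 4 libraries numbered 1 and 420 to 918 in those numbered 2, and *Gfap* at 602.8 FPKM in replicate 2 of Day 3. Of the 7 tested, limma called *Sox9* lower on Day 3 (-2.54, adjusted p = 0.0123) and none higher. *Gfap* and *Aqp4* passed as higher with the replicate number in the model (adjusted p = 0.000127 and 0.000735), against 0.457 and 0.545 without it. The 7 neuronal markers summed to 64.4 and 31.4 FPKM on Day 0 and 233 and 115 on Day 3, mostly *Tubb3*. Of the 3 tested, *Tubb3* was higher on Day 3 (2.15, adjusted p = 0.0206), and *Snap25* and *Syt1* had negative changes. These were -1.8 (adjusted p = 0.0618, and 0.0473 with the replicate number in the model) and -0.50 (adjusted p = 0.27). The part of these markers in the members' changes was not tested. The 8 microglial markers summed to 2.51 FPKM at most, the 4 mural markers to 2.20 and the 4 endothelial markers to 0.428. In a bulk library, fewer cells of a type and less RNA per cell cannot be told apart.

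Mitoribosomal protein mRNAs were lower on Day 3 than on Day 0 in both subunits, with 26 of 76 genes past the test below and, on FPKM as deposited, none higher. Together they made up 0.595% and 0.590% of the FPKM sum in the Day 0 libraries, 0.533% and 0.509% (Day 1), 0.465% and 0.492% (Day 2), and 0.447% and 0.465% (Day 3). Both libraries of every later day were thus below both of Day 0. The median large-subunit gene was at 28.9 and 29.5 FPKM on Day 0 and at 17.8 and 18.6 on Day 3. The median small-subunit gene was at 27.9 and 27.2 FPKM on Day 0 and at 19.4 and 17.8 on Day 3. On Day 1 and Day 2 the libraries had large-subunit medians of 26.7, 23.0, 19.5 and 20.2 and small-subunit medians of 24.5, 23.2, 19.3 and 19.8. In replicate 1 the small-subunit median of Day 2 was below that of Day 3. Large and small subunit were compared by their medians and by their sums. The ratio of the large to the small median was 1.04 and 1.09 on Day 0, 1.09 and 0.989 (Day 1), 1.01 and 1.02 (Day 2), and 0.918 and 1.04 (Day 3). The gap between the Day 3 libraries was wider than that between the means of any 2 days. The ratio of the summed FPKM, to which the abundant genes add most, was 1.77 and 1.79 on Day 0, then 1.61 and 1.56 (Day 1), 1.56 and 1.47 (Day 2), and 1.78 and 1.57 (Day 3). By sums, all Day 1 and Day 2 libraries lay below those of Day 0, while replicate 1 of Day 3 lay between the Day 0 libraries and replicate 2 between those of Day 1.

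**Figure D1:**
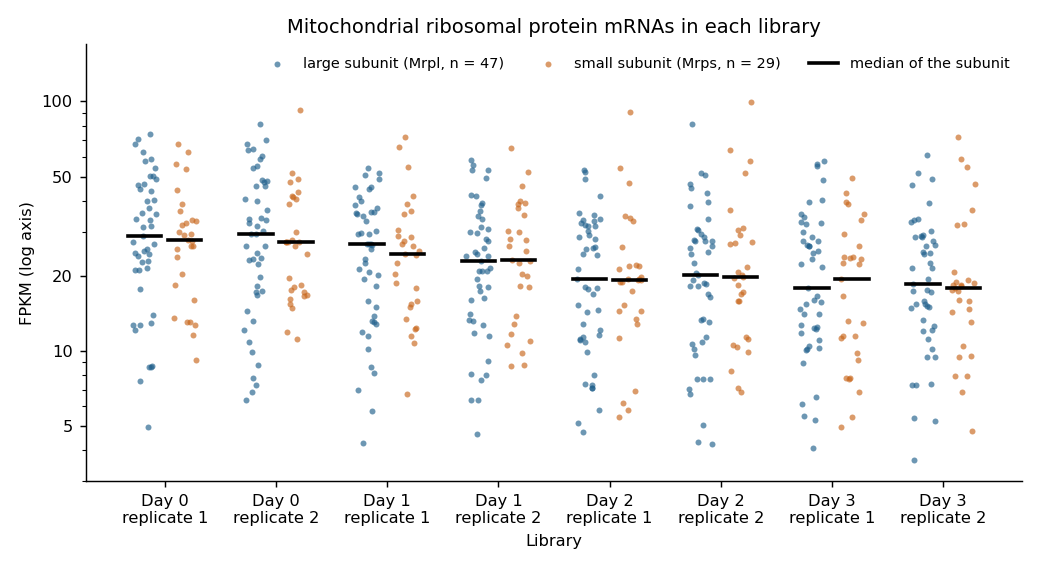
FPKM (log axis) of the 47 large-subunit and 29 small-subunit genes in each of the 8 libraries, 1 point per gene, with a bar at each subunit's median. The medians lie at 27.2 to 29.5 FPKM in the Day 0 libraries and at 17.8 to 19.4 in the Day 3 libraries, with a ratio of the large to the small median of 0.918 to 1.09.

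The comparison of days used limma on log2(FPKM + 1), a scale that understates the change of weakly expressed genes. It covered the 12208 genes that reached an FPKM of 1 in 2 or more libraries, and p-values were adjusted over all of them. All 76 members passed this filter. From Day 0 to Day 3, 26 of the 76 members were lower at an adjusted p under 0.05 (34.2%), against 26.3% of all genes tested. None was higher, against 12% of all genes. At an unadjusted p under 0.05 there were 38 of the 76 members, against 5864 of the 12208 genes tested. All 38 had a negative change. By subunit, 14 of 47 large-subunit genes (29.8%) and 12 of 29 small-subunit genes (41.4%) were lower, with a median log2 change of -0.55 and -0.59. The interquartile range over the 76 members was -0.78 to -0.22, and the median of all genes tested was -0.31. Of the 50 members not called, 43 had a negative change and 7 a positive one. With *Mrps30* and *Mrps18a* counted with the large subunit, the counts were 14 of 49 and 12 of 27 and the medians -0.56 and -0.585. *Mrps36* (-0.15, not called) was left among the 27. The Day 3 libraries lay below both Day 0 libraries for 53 of the 76 members (69.7%, against 48.6% of all genes tested), 31 of the large and 22 of the small subunit. They lay above for 2, *Mrpl36* and *Mrpl20* (22.8% of all genes tested), and overlapped for 21. The difference between the subunits was not tested, and within each replicate number the medians were -0.44 and -0.52 for the large and -0.54 and -0.54 for the small subunit. Astrocyte markers were higher in the replicates numbered 2, and their part in the members' fall was not tested.

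**Figure D2:**
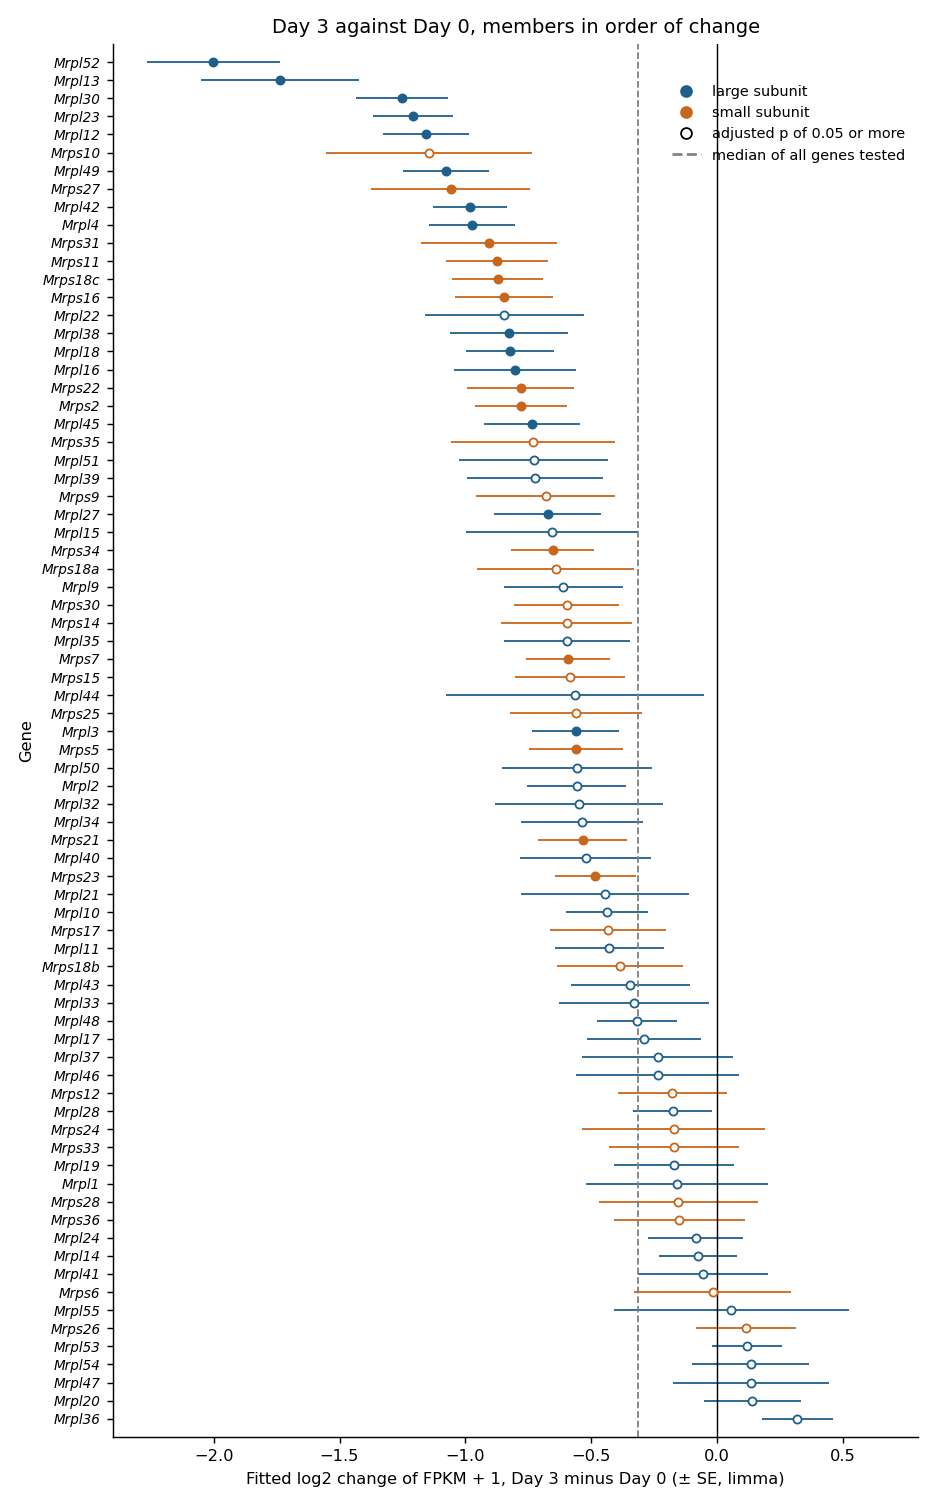
Fitted log2 change of FPKM + 1 from Day 0 to Day 3 with its SE (limma) for each of the 76 members, in order. Filled points passed an adjusted p under 0.05, open points did not, and the dashed line marks the median of all genes tested at -0.31. Left of 0 lie 69 of 76 points, against 7954 of the 12208 genes tested with a negative change.

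Scaling set how many members counted as lower. FPKM as deposited put the median of all genes at -0.31, and rescaling the libraries moved it to -0.18 (same sum), -0.04 (median ratio) and -0.03 (quantile). The members' median moved with it, from -0.56 to -0.41, -0.26 and -0.30, so that the distance to all genes stayed between -0.27 and -0.22. The share of lower members was above that of all genes as deposited (34.21% against 26.27%). It was near it with the same sum (21.05% against 20.74%) and after quantile normalization (18.42% against 17.97%). With median ratio scaling it was below it: 9 members were lower (11.84%, against 16.8% of all genes) and 2 were higher (2.632%, against 17.5%). The 9 were 8 large-subunit genes and 1 small-subunit gene, *Mrps18c*, and the 2 were *Mrpl36* and *Mrpl53*. Relative to all genes, the large-subunit median lay between -0.25 and -0.20 and the small-subunit median between -0.35 and -0.24 under the 4 scalings. Across the 10 settings that used all the libraries compared, 9 members were lower in every one: *Mrpl52*, *Mrpl13*, *Mrpl30*, *Mrpl23*, *Mrpl12*, *Mrpl49*, *Mrpl42*, *Mrpl4* and *Mrps18c*.

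Other families placed the size of this fall. The cytosolic ribosomal proteins, which build the ribosome of the cytosol, had larger changes, with 78 of 80 genes lower and a median log2 change of -1.44 (75 lower after median ratio scaling, 72 after quantile normalization). Their share of the FPKM sum went from 12.1% and 13.3% on Day 0 to 5.48% and 4.93% on Day 3. The nuclear subunits of the respiratory chain and the ATP synthase, which work beside the mitoribosome's products, had 27 of 76 genes lower and a median of -0.35. This median lay -0.04 to 0.00 from that of all genes under 3 of the 4 scalings and -0.23 from it after quantile normalization. With median ratio scaling, 5 respiratory chain genes were higher and 3 lower. After quantile normalization 1 was higher and 19 were lower (25%, against 18.4% of the mitoribosomal genes). As deposited, 35.5% of respiratory chain genes were lower, against 34.2% of the mitoribosomal genes. Their share of the FPKM sum was 2.69% and 2.76% on Day 0 and 2.48% and 2.39% on Day 3. The mitoribosomal medians thus lay between those of the 2 other families under each scaling. After quantile normalization, however, the large-subunit median (-0.28) was close to that of the respiratory chain (-0.26). The differences between families were not tested.

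**Figure D3:**
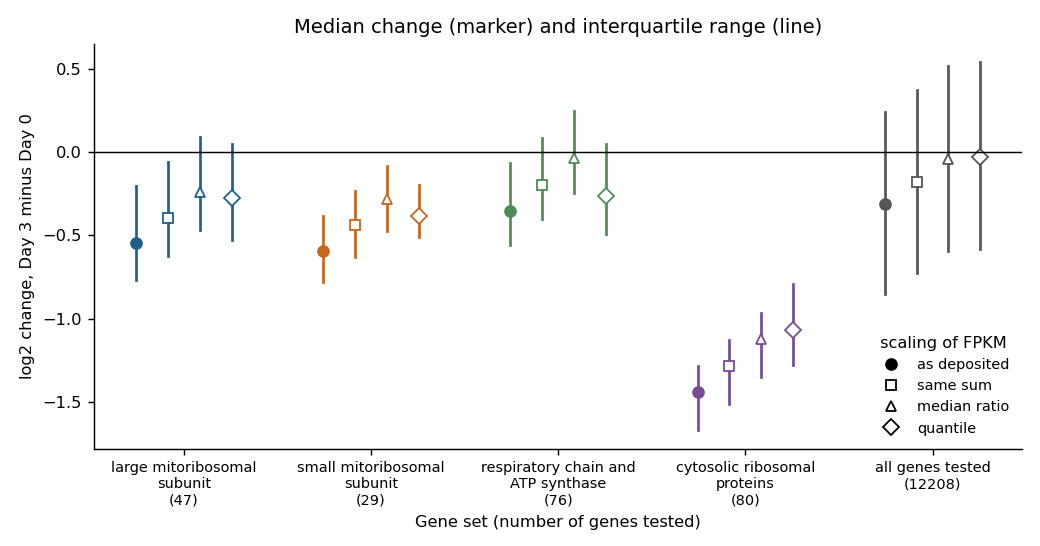
Median log2 change from Day 0 to Day 3 and interquartile range (lines) of 5 groups of genes under 4 scalings of the libraries (as deposited, same sum, median ratio, quantile). The subunits of the mitoribosome lie together, at -0.55 and -0.59 as deposited, between the respiratory chain at -0.35 and the cytosolic ribosomal proteins at -1.44.

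The large-subunit genes held the strongest falls. *Mrpl52* (chr14:54426909-54429756, plus strand), which encodes a protein found only in mitochondrial ribosomes, was at 58.5 and 81.1 FPKM on Day 0, then 45.5 and 41.8 (Day 1), 31.9 and 18.2 (Day 2) and 17.8 and 15.2 (Day 3). It went from 69.8 ± 16.0 to 16.5 ± 1.84 FPKM (SD, n = 2), a log2 change of -2.0 (SE 0.26, adjusted p = 0.000764). Every day lay below the day before it, without overlap of the libraries. *Mrpl13* (chr15:55534094-55557748, minus strand), whose product has a bacterial counterpart, was at 48.9 and 64.3 FPKM on Day 0, then 35.3 and 25.9 (Day 1), 26.1 and 13.4 (Day 2) and 14.0 and 18.6 (Day 3) (-1.74, SE 0.31, adjusted p = 0.00345). Its exons overlap those of *Mtbp* on the other strand, and whether the counting used strand is not given in the sources used here, so its values are uncertain. *Mrpl30* (chr1:37890477-37898535), which also has a bacterial counterpart, was at 70.8 and 63.7 FPKM on Day 0, then 50.7 and 36.2 (Day 1), 33.3 and 38.0 (Day 2) and 26.5 and 28.7 (Day 3) (-1.25, SE 0.18, adjusted p = 0.00125). All 3 genes had a lower mean on each day than on the day before.

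*Mrpl23* and *Mrpl12* made most of their fall in the first day. *Mrpl23* (chr7:142532686-142540747), whose bacterial counterpart lies at the exit of the peptide tunnel, was at 50.4 and 60.2 FPKM on Day 0, then 29.4 and 28.2 (Day 1), 28.2 and 25.8 (Day 2) and 25.2 and 21.5 (Day 3). Its change was -0.91 by Day 1 (SE 0.16, adjusted p = 0.00772) and -1.21 by Day 3 (SE 0.16, adjusted p = 0.000753). *Mrpl12* (chr11:120484613-120489065) encodes the protein of the stalk, the arm of the large subunit that recruits translation factors. It was at 57.7 and 55.0 FPKM on Day 0, then 36.1 and 31.3 (Day 1), 33.7 and 27.7 (Day 2) and 22.2 and 27.5 (Day 3) (-1.16, SE 0.17, adjusted p = 0.00132). By Day 1 it had changed by -0.73 (adjusted p = 0.0273). Its partner at the base of the stalk, *Mrpl10*, was at 31.8 and 36.8 FPKM on Day 0 and at 23.4 and 26.7 on Day 3, a change of -0.44 that did not pass (adjusted p = 0.0638).

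*Mrpl49* (chr19:6053622-6057785, minus strand), found only in mitochondrial ribosomes, was at 26.9 and 29.3 FPKM on Day 0, then 19.4 and 18.2 (Day 1), 15.3 and 13.1 (Day 2) and 12.2 and 13.3 (Day 3) (-1.08, SE 0.17, adjusted p = 0.00186). *Mrpl42* (chr10:95480805-95501940, minus strand), likewise mitochondrial, was at 67.5 and 67.3 FPKM on Day 0, then 49.0 and 42.3 (Day 1), 35.8 and 30.5 (Day 2) and 34.4 and 32.9 (Day 3) (-0.98, SE 0.15, adjusted p = 0.00133). The exons of *Mrpl49* overlap those of *Syvn1* on the other strand. Both genes had reached about their final level on Day 2, and no library of Day 2 or Day 3 overlapped those of Day 1. In the small subunit the strongest called fall was that of *Mrps27* (chr13:99344786-99415562), whose product belongs to the RNA-binding pentatricopeptide repeat proteins. It was at 13.1 and 15.4 FPKM on Day 0, then 12.4 and 10.6 (Day 1), 5.78 and 10.6 (Day 2) and 4.96 and 7.91 (Day 3) (-1.06, SE 0.32, adjusted p = 0.0300). *Mrps10* had a larger fitted change of -1.14 that missed the threshold (adjusted p = 0.0569). It was chosen after its values were seen, and its Day 3 libraries were at 5.41 and 14.3 FPKM, a ratio of 2.65.

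The other called members changed by -0.97 to -0.48. In the large subunit these were *Mrpl4*, *Mrpl38*, *Mrpl18*, *Mrpl16*, *Mrpl45*, *Mrpl27* and *Mrpl3*, and in the small subunit *Mrps31*, *Mrps11*, *Mrps18c*, *Mrps16*, *Mrps22*, *Mrps2*, *Mrps34*, *Mrps7*, *Mrps5*, *Mrps21* and *Mrps23*. All 26 called members had Day 3 libraries below both Day 0 libraries. The calls came from these same libraries, so this is no separate support for them. By the number of fragments behind a gene the calls divided as follows: of the 38 members at or above the median number of fragments 12 were lower, and of the 38 below it 14 were lower. The median difference between replicates on the log2 scale was 0.24 and 0.30 in these sets.

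Among genes of the catalytic and decoding sites, 1 of the 3 examined was lower on Day 3. *Mrpl2* and *Mrpl3* encode proteins near the peptidyl transferase center. *Mrpl2* was at 35.4 and 33.8 FPKM on Day 0 and at 21.7 and 24.8 on Day 3, a change of -0.56 just outside the threshold (SE 0.20, adjusted p = 0.0547, and 0.0436 with the replicate number as a term of the model). *Mrpl3* was at 40.5 and 48.4 FPKM on Day 0, then 25.6 and 23.0 (Day 1), 24.1 and 25.02 (Day 2) and 26.4 and 33.4 (Day 3). It was lowest on Day 1 (-0.84, SE 0.17, adjusted p = 0.0161) and remained lower on Day 3 (-0.56, SE 0.17, adjusted p = 0.0339). *Mrps12*, whose product lies at the decoding site, was at 33.4 and 41.7 FPKM on Day 0, then 41.7 and 40.0 (Day 1), 34.8 and 51.6 (Day 2) and 29.5 and 36.6 (Day 3). The days overlapped, and the change was -0.18 (SE 0.22, adjusted p = 0.544).

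The 3 *Mrps18* paralogs encode related proteins at different places in the ribosome. The product of *Mrps18c* is the counterpart of the bacterial protein, that of *Mrps18b* is a second small-subunit protein, and that of *Mrps18a* sits in the large subunit. *Mrps18c* was at 44.2 and 39.0 FPKM on Day 0 and at 23.7 and 20.8 on Day 3, a change of -0.87 (SE 0.18, adjusted p = 0.00651). *Mrps18b* was at 27.9 and 26.3 FPKM on Day 0 and at 23.5 and 17.8 on Day 3 (-0.39, adjusted p = 0.255). *Mrps18a* was at 25.7 and 41.5 FPKM on Day 0 and at 23.3 and 18.1 on Day 3 (-0.64, adjusted p = 0.138). All 3 had Day 3 libraries below those of Day 0, and the differences between them were not tested. *Mrps30*, whose product also lies in the large subunit, was at 16.0 and 14.9 FPKM on Day 0 and at 9.23 and 10.5 on Day 3. Its change of -0.60 just missed the threshold (SE 0.21, adjusted p = 0.0535), and the adjusted p was 0.0484 with the replicate number as a term of the model.

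Levels differed more between members than between days. The mean FPKM over all libraries ran from 5.88 for *Mrpl1* to 74.5 for *Mrps21*, a ratio of 12.7, whereas the median over the members was 28.3 FPKM on Day 0 and 18.8 on Day 3. The highest large-subunit genes were *Mrpl20* at 58.2, *Mrpl53* at 49.4 and *Mrpl34* at 48.1 FPKM. The highest small-subunit genes were *Mrps21* at 74.5, *Mrps33* at 53.8 and *Mrps7* at 46.2 FPKM. The lowest were *Mrpl1* at 5.88, *Mrpl15* at 6.60 and *Mrpl19* at 7.09 FPKM in the large subunit, and *Mrps25* at 8.88, *Mrps14* at 9.70 and *Mrps35* at 9.79 FPKM in the small subunit. Neighbours in these orders overlapped in their libraries. The order was largely kept over time, with a Spearman correlation across the 76 genes, which share libraries, of 0.92 between Day 0 and Day 1, 0.93 between Day 1 and Day 2, 0.91 between Day 2 and Day 3, and 0.88 between Day 0 and Day 3. Of the 6 highest genes, *Mrps21* (-0.53, SE 0.18, adjusted p = 0.0433) and *Mrps7* (-0.59, SE 0.17, adjusted p = 0.0230) were lower on Day 3. *Mrps7* was at 56.1 and 51.7 FPKM on Day 0 and at 38.8 and 32.3 on Day 3. *Mrpl34*, *Mrps33*, *Mrpl53* and *Mrpl20* had changes of -0.54, -0.17, 0.12 and 0.14, with adjusted p from 0.115 to 0.624. *Mrpl53* was even in all libraries, at 44.7 to 56.2 FPKM, and passed as higher after median ratio scaling alone (0.43, adjusted p = 0.0447). None of the 6 lowest genes passed, with changes of -0.73 to -0.16. *Mrpl1* was at 4.94 and 7.81 FPKM on Day 0 and 4.06 and 7.30 on Day 3. The replicates of each of these days differed by more than the days did, and its change of -0.16 had an SE of 0.36.

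Members with a bacterial counterpart were set beside those taken as found only in mitochondria. This rough grouping was made from general knowledge after the values were seen, and the difference was not tested. In the large subunit 9 of 28 members with a bacterial counterpart were lower (median -0.55) and 5 of the 19 others (median -0.52). The 19 include *Mrpl47* and *Mrpl55*, whose placing there is doubtful, so these medians are not read as a difference. In the small subunit these numbers were 7 of 18 (median -0.59) and 5 of 11 (median -0.60). The level on Day 0 was higher for those with a bacterial counterpart, with a median of 34.5 against 23.9 FPKM in the large and 28.0 against 18.6 FPKM in the small subunit.

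Single steps carried few calls. By Day 1, 65 of 76 members had a negative change, against 6793 of the 12208 genes tested. Of the members 6 were called lower (7.89%, against 7.56% of all genes tested): *Mrpl23*, *Mrpl3*, *Mrpl12*, *Mrpl18*, *Mrpl42* and, in the small subunit, *Mrps23* at -0.65. The share of calls was near that of all genes, while the medians of -0.27 for the large and -0.18 for the small subunit lay below that of all genes at -0.07. The cycling markers had already reached 55.5 and 13.6 FPKM on Day 1. Relative to Day 0, the members' median was -0.22 on Day 1, -0.42 on Day 2 and -0.56 on Day 3. For the step to Day 2 it was -0.22, against -0.19 over all genes tested, and for the last step -0.15 against -0.02. With median ratio scaling these steps were -0.04 against -0.02 and -0.12 against 0.01. After quantile normalization they were -0.04 against -0.04 and -0.14 against -0.02. The part of the cycling cells in the members' fall was not tested. From Day 1 to Day 2 only *Mrpl28* was lower, against 1.73% of all genes. An unadjusted p under 0.05 was reached by 11 of 76 members, against 2665 of the 12208 genes tested. From Day 2 to Day 3 limma called no member, against 0.295% of all genes. Here 5 of 76 members had an unadjusted p under 0.05, against 1773 of the 12208 genes tested. With the replicate number as a block, which removes what the libraries of 1 number share, *Mrpl28* and *Mrpl47* were lower in the second step, against 3.57% of all genes, and higher in the last, against 0.975%.

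The courses of *Mrpl28* and *Mrpl47* dipped on Day 2 and came back. *Mrpl28* (chr17:26123500-26126613), with a bacterial counterpart, was at 44.7 and 39.8 FPKM on Day 0, then 36.0 and 33.8 (Day 1), 17.0 and 20.5 (Day 2) and 35.3 and 39.2 (Day 3). Its change was -0.87 in the second step (SE 0.16, adjusted p = 0.0269 and 0.0218 in the block fit) and 0.96 in the last step (SE 0.16, adjusted p = 0.0608 and 0.0415 in the block fit). *Mrpl47* (chr3:32725397-32737605, minus strand) was chosen after its values were seen, and its exons overlap those of *Actl6a* and *Ndufb5* on the other strand. It was at 12.7 and 12.2 FPKM on Day 0, then 15.9 and 8.07 (Day 1), 4.71 and 4.31 (Day 2) and 15.8 and 11.97 (Day 3). Its changes in these steps were -1.17 (adjusted p = 0.0772 and 0.0367 in the block fit) and 1.42 (adjusted p = 0.0948 and 0.0452 in the block fit). For both genes the Day 2 libraries were the lowest of all 8. *Mrps21* had its highest mean on Day 2, at 90.8 and 99.7 FPKM, against 67.3 and 92.1 on Day 0 and 49.6 and 59.0 on Day 3, but neither step passed (0.46, adjusted p = 0.176, and -0.80, adjusted p = 0.0965).

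A few members stood apart by not falling, and *Mrps6* and *Mrpl36* were likewise named after their values were seen. *Mrpl36* (chr13:73328513-73332178), a small protein with a bacterial counterpart, was at 39.8 and 40.7 FPKM on Day 0, then 54.2 and 58.1 (Day 1), 41.9 and 45.0 (Day 2) and 54.9 and 46.3 (Day 3). Both Day 0 libraries were the lowest of the 8. Its change by Day 3 was 0.32 on FPKM as deposited (SE 0.14, adjusted p = 0.105) and passed as higher after rescaling, at 0.47 (adjusted p = 0.0286, same sum), 0.63 (0.0099, median ratio) and 0.41 (0.0443, quantile). Its exons overlap those of *Ndufs6* on the other strand. *Mrps6* (chr16:92058270-92112227) was at 53.4 and 49.0 FPKM on Day 0, then 35.5 and 28.0 (Day 1), 19.9 and 27.0 (Day 2) and 35.3 and 72.3 (Day 3). Replicate 2 of Day 3 was the highest of the 8 and replicate 1 lay below both Day 0 libraries, so the change of -0.02 (adjusted p = 0.971) averages libraries that differed by a ratio of 2.05. Its exons overlap those of *Slc5a3* on the same strand.

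**Figure D4:**
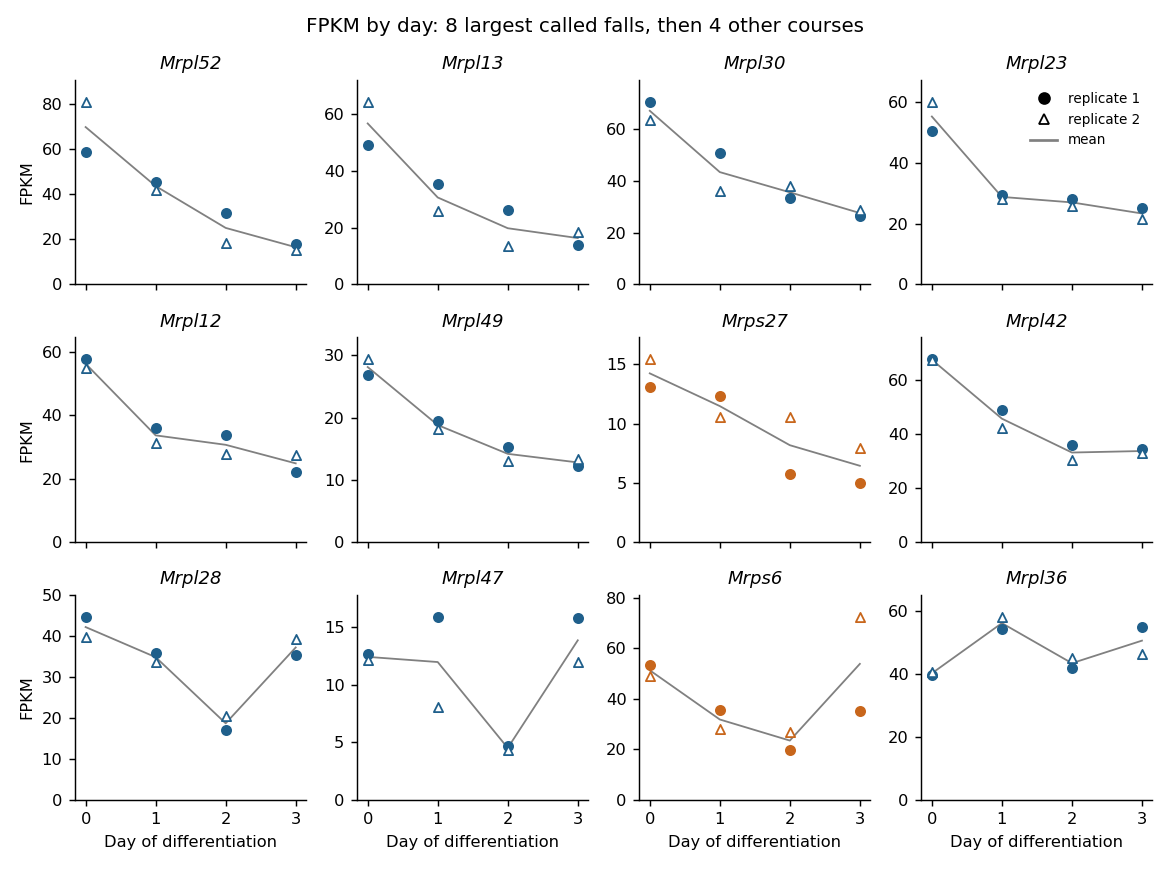
FPKM on each day (replicate 1 filled circle, replicate 2 open triangle, line through the means) for the 8 members with the largest called falls and for *Mrpl28*, *Mrpl47*, *Mrps6* and *Mrpl36*. The first 8 are lower on every later day than on Day 0, while *Mrpl28* and *Mrpl47* are lowest on Day 2 and *Mrpl36* is lowest on Day 0.

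Between the replicate numbers, limma called no member, against 1.05% of all genes tested. An unadjusted p under 0.05 was reached by 4 of 76 members (*Mrpl33*, *Mrps28*, *Mrpl9* and *Mrps17*), against 1447 of the 12208 genes tested. *Mrpl33* came closest, at 0.54 higher in replicate 2 (adjusted p = 0.0513). It was at 46.2 and 70.0 FPKM on Day 0, then 38.5 and 55.4 (Day 1), 31.7 and 51.6 (Day 2) and 39.4 and 51.5 (Day 3), higher in replicate 2 on all 4 days. *Mrps28* was the only other member with this order, and 8 members were higher in replicate 1 on all 4 days.

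Many mitoribosomal protein genes share their start region with another gene that is read away from it. Of the 76, 25 (32.9%) had a coding gene on the opposite strand whose start lay within 1000 bases upstream or overlapped by at most 500 bases, against 9.72% of the 19005 other coding genes of the table. *Mrpl46* and *Mrps11* are such a pair themselves, so there were 24 distinct pairs, with a median distance between the starts of 59 bases. Of the 25 neighbours, 6 were lower on Day 3 (24%, against 26.3% of all genes tested) and none was higher, and their median change was -0.39, against -0.31 over all genes. In 3 pairs both genes were lower: *Mrpl49* with *Fau*, which encodes a cytosolic ribosomal protein (-0.87, adjusted p = 0.00367); *Mrpl27* with *Eme1*, a subunit of a DNA repair nuclease (-2.75, adjusted p = 0.000486); and *Mrpl13* with *Mtbp*, which encodes an MDM2-binding protein (-1.78, adjusted p = 0.0295). The start of *Fau* lies 59 bases from that of *Mrpl49*, and its level was 18.1 times as high on Day 0, at 476 and 541.9 FPKM. In other pairs the fitted changes differed in size or direction, and the differences within pairs were not tested. *Ncapd2*, which encodes a condensin subunit and starts 100 bases from *Mrpl51*, went from 145 and 127 FPKM on Day 0 to 8.53 and 6.01 on Day 3 (-4.06, adjusted p = 0.000166), while *Mrpl51* changed by -0.73 (adjusted p = 0.0843). *Mrpl36* changed by 0.32 and *Ndufs6*, a complex I subunit whose start overlaps its own by 29 bases, by -0.31 (adjusted p = 0.222). *Mrps11* was lower (-0.87, adjusted p = 0.0106), whereas *Mrpl46* changed by -0.24 (adjusted p = 0.594). In the annotation, the exons of 23 members overlapped another coding gene, 4 of them on the same strand, and their values are uncertain in the same way. These were *Mrpl9*, *Mrpl13*, *Mrpl14*, *Mrpl18*, *Mrpl19*, *Mrpl21*, *Mrpl24*, *Mrpl27*, *Mrpl36*, *Mrpl43*, *Mrpl44*, *Mrpl46*, *Mrpl47*, *Mrpl48*, *Mrpl49* and *Mrpl53* of the large subunit and *Mrps6*, *Mrps7*, *Mrps11*, *Mrps24*, *Mrps25*, *Mrps30* and *Mrps34* of the small subunit.

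**Figure D5:**
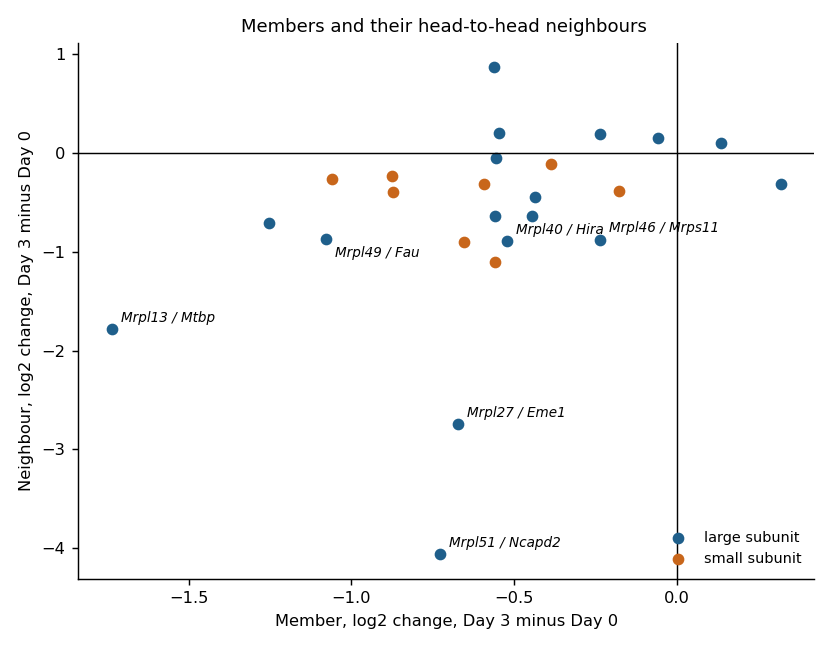
Log2 change from Day 0 to Day 3 of 25 members (horizontal axis) and of the gene that starts beside each on the other strand (vertical axis). Pairs with both genes lower (*Mrpl13* and *Mtbp*, *Mrpl27* and *Eme1*, *Mrpl49* and *Fau*) lie at the lower left, and *Ncapd2* at -4.06 stands far below its partner *Mrpl51* at -0.73.

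The change of the members was set beside the strings in their promoters. The 24 members with the ETS string had a median change of -0.53 with 10 lower, and the 43 without it -0.56 with 12 lower. The 12 members with the YY1 string had a median of -0.59 with 5 lower, and the 55 without it -0.56 with 17 lower. The 8 members with the NRF1 string had a median of -0.49 with none lower, and the 59 without it -0.56 with 22 lower. The 5 members with the E-box had a median of -0.24 with 1 lower, and the 62 without it -0.56 with 21 lower. The 33 members with the GC box had a median of -0.52 with 10 lower, and the 34 without it -0.56 with 12 lower. These are descriptions and were not tested.

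The rest of the mitochondrial translation system was described from lists of 78 genes, of which 76 were tested, 21 were lower and none was higher, with a median of -0.46. This was 27.6%, near the 26.3% of all genes tested that were lower. With the replicate number in the model the assembly factor *Mpv17l2* passed as higher (0.64, adjusted p = 0.0486, and 0.103 without it). Of 17 assembly factors 4 were lower, led by the GTPase *Gtpbp10* (-1.12, adjusted p = 0.0127) and *Eral1*, a chaperone of the small ribosomal RNA (-1.05, adjusted p = 0.0269). Of 12 translation factors 3 were lower, with the elongation factor *Guf1* at -1.01 (adjusted p = 0.0131) and the deformylase *Pdf* at -0.74 (adjusted p = 0.0404). Of 6 mitoribosomal proteins whose symbols lack the *Mrp* prefix 2 were lower, *Ptcd3* (-0.74, adjusted p = 0.0209) and *Chchd1* (-0.60, adjusted p = 0.0232), both in the small subunit. Their median of -0.28 was smaller than that of the members. Of 17 mitochondrial aminoacyl-tRNA synthetases, which charge tRNAs with amino acids, 4 were lower, led by *Cars2* (-1.26, adjusted p = 0.00357) and *Hars2* (-1.12, adjusted p = 0.0288).

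Upstream of the ribosome, 1 of 8 genes for the copying and transcription of mitochondrial DNA was lower, the DNA polymerase *Polg* (-1.59, adjusted p = 0.00313). Of 8 genes for mitochondrial RNA processing 2 were lower, the tRNA nuclease *Elac2* (-1.0, adjusted p = 0.00532) and *Hsd17b10*, a component of mitochondrial RNase P (-0.80, adjusted p = 0.0122). Of 8 tested regulators of mitochondrial biogenesis 5 were lower, led by the growth regulator *Myc* (-2.54, adjusted p = 0.000539) and the coactivator *Pprc1* (-1.10, adjusted p = 0.00641). *Myc* was at 59.8 and 84.6 FPKM on Day 0, then 61.9 and 42.4 (Day 1), 22.6 and 18.8 (Day 2) and 15.7 and 8.28 (Day 3). Of the factors whose strings were searched, *Nrf1* was lower (-0.81, adjusted p = 0.0153), and so was *Gabpb2*, which encodes a subunit of GABP (-0.88, adjusted p = 0.0354). Its partner *Gabpa*, which binds the DNA (-0.27, adjusted p = 0.404), and *Yy1* (-0.08, adjusted p = 0.765) did not pass. The part of these regulators in the members' fall was not tested.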

How the data were processed

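The authors sequenced stranded mRNA libraries on a MiSeq (paired reads of 75 nt) and processed them with OmicSoft ArrayStudio. They deposited a table of FPKM with a column per library and no pooling of replicates. The genome build was mm10 per the submitters' processing notes; the aligner, the gene model and the use of strand are not given in the sources used here. The labels gave the day and the replicate number of each library, and 0 columns of other samples were left aside.

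The model was fitted to log2(FPKM + 1) with limma 3.58.1 (R 4.3.3; eBayes with a trend), using all 8 libraries, day as a factor and Benjamini-Hochberg adjustment over the 12208 genes that reached 1 FPKM in 2 or more libraries. An adjusted p under 0.05 was a call. The exact permutation test was not used, since its smallest p for 2 against 2 libraries is 0.333. Python 3.11.15, pandas 2.3.3, numpy 2.4.6, matplotlib 3.10.9 and scipy 1.17.1 served for the other steps.

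Same-numbered libraries shared deviations. Across genes, the replicate differences of any 2 of the 4 days correlated with r between 0.164 and 0.285 (6 pairs), so the numbers of the labels were taken as pairs for the block fit. Depth was read from the steps between low values, of which 68.1% to 75.8% per library were whole fragments within 0.1. FPKM were therefore not turned back into counts.

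The members, lists and comparisons were chosen with earlier results of these data known. Members named are the 8 largest called falls and rises by Day 3 without overlap of the libraries, the 3 highest and 3 lowest levels in each subunit, up to 3 called changes each way in a single step, and *Mrpl10*, *Mrpl12*, *Mrps12*, *Mrpl2*, *Mrpl3*, *Mrps18a*, *Mrps18b*, *Mrps18c* and *Mrps30* by role; other lists give up to 2 called changes each way, and further genes are named as chosen later, promoter examples and neighbours included. Alternatives were a pseudocount of 0.1, no filter, a minimum of 10 FPKM in 1 library, 3 rescalings, the replicate block, a model of the 2 days alone, eBayes without a trend, subunits by particle, and each library left out in turn.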

Additional observations from a re-analysis of the deposited data

How the results depend on the processing

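The number of members lower on Day 3 was 16 with the libraries rescaled to the same sum, 9 with median ratio scaling and 14 with quantile normalization, and the number higher was 1, 2 and 1. The lower members made up 21.05%, 11.84% and 18.42%, against 20.74%, 16.77% and 17.97% of all genes tested. The larger share of lower members on FPKM as deposited (34.21% against 26.27%) was thus not kept after rescaling. The median change of the large subunit moved to -0.40, -0.24 and -0.28 under these scalings, and that of the small subunit to -0.44, -0.28 and -0.38, to -0.61 with a pseudocount of 0.1 and to -0.585 by particle. Among the named members, *Mrpl1* (0.11 and 0.29) and *Mrpl19* (0.11 and 0.25) turned positive with median ratio scaling and quantile normalization, and *Mrpl28* (0.13), *Mrps12* (0.13) and *Mrps33* (0.14) with median ratio scaling; none of these passed the threshold. The 29 named members had 491 values under all alternatives. Of these, 437 kept their direction and side of the threshold, 34 lost the call, 10 gained it and 10 reversed in direction.

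With the replicate block 29 members were lower on Day 3 (with *Mrpl2*, *Mrps30* and *Mrpl9* added) and 7 on Day 1 (*Mrpl43* added), 2 were called from Day 1 to Day 2 and 2 from Day 2 to Day 3; the block changed no other call of a member between days. Without the trend, Day 1 against Day 0 gave 2 calls and Day 2 against Day 1 gave 0. With only the libraries of the 2 days in the model these were 3 and 0, and with median ratio scaling the step to Day 2 gave 0. Between replicate numbers 1 member, *Mrpl33*, was called with the filter of FPKM of at least 10 and under each of the 3 rescalings. Leaving out each library in turn gave 11 to 25 members lower on Day 3 (11 without replicate 1 and 13 without replicate 2 of Day 0), 0 to 6 called on Day 1 (1 and 0 without replicate 1 and 2 of Day 0, 3 and 0 without those of Day 1), 0 to 1 in each of the later steps, and medians of -0.55 to -0.48 and -0.62 to -0.55 in the large and the small subunit. *Mrpl1* then ranged from -0.51 to 0.20 and *Mrps33* from -0.37 to 0.027. The cause of these changes was not tested. At the estimated depth the counting SD was 37.8% for the member of fewest fragments and 7.41% for that of most.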
